A study of Mus musculus with 6 samples.

Results

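Chemokine ligand genes were described across 6 mouse RNA-Seq libraries. The members are the gene symbols of the Ccl and Cxcl families together with Cx3cl1 and Xcl1, chosen by name alone, and they number 38 of the 30281 symbols in the table. The platelet CXC ligands Pf4 and Ppbp belong to the same protein family but carry other names and were left outside the set. Of the 38 members, 18 reached 1 TPM (a transcript level corrected for transcript length and library depth) in at least 1 library, 14 had some counts but stayed under 1 TPM in all 6 libraries, and 6 had 0 counts in all of them.

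Chemokines are small, mostly secreted proteins that direct the migration of cells bearing matching G protein-coupled receptors. CC and CXC ligands are named for the spacing of their first cysteines, and many of them share receptors: the CXCR2 ligands recruit neutrophils, the CXCR3 ligands recruit activated T cells and natural killer cells, and the CCR2 ligands recruit monocytes. Transcription of the inflammatory members is induced through NF-kB and, for the CXCR3 ligands, through interferon, whereas homeostatic members such as Cxcl12 are made constitutively by stromal cells.

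A pair of libraries, 1 per genotype, came from untreated mouse embryonic fibroblasts (MEFs) labelled Tsc2-/- p53-/- or Tsc2+/+ p53-/-. The other 4 came from MKOC and TJ cells, mouse kidney epithelial lines that are both labelled Tsc2-null, with TJ labelled as derived from a secondary tumor in C57BL6 mice. Each kidney line gave 1 untreated library and 1 library from cells kept for 18 hours in 100 nM rapamycin, an inhibitor of mTORC1, the kinase complex that the Tsc2 protein restrains, in serum-free medium. The protocol names diluent in that medium as the other arm, while the labels of the untreated libraries give no treatment and do not repeat the medium. The sources used here give neither the age of the animals nor the number of clones behind a line. The estimated counts summed to between 22887020 and 37505004 per library. Tsc2 RNA was present in every library, with 22.6 TPM in the library labelled Tsc2+/+, 10.5 TPM in the library labelled Tsc2-/-, 49.1 and 44.0 TPM in untreated MKOC and TJ cells and 19.5 and 19.1 TPM with rapamycin, and the gene sums do not show which exons were read. Trp53 RNA was likewise present in the MEFs labelled p53-/-, with 26.3 TPM in Tsc2+/+ and 28.5 TPM in Tsc2-/- cells.

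Markers were in part those of the labelled cells. In the kidney libraries 6 of 8 kidney epithelial markers reached 1 TPM, among them Cdh16 with 395 to 720 TPM and Pax8 with 121 to 164 TPM, while Epcam was at most 0.0268 TPM. Of the fibroblast markers, 6 of 8 reached 1 TPM in Tsc2+/+ MEFs and 7 in Tsc2-/- MEFs. Leukocytes, a usual source of chemokines, left little trace: Tyrobp had 0 TPM in all 6 libraries and Ptprc, which encodes CD45, had at most 0.0732 TPM, although Csf1r had 11.3 to 30.3 TPM and Cd68 4.48 to 8.01 TPM in the kidney lines. In Tsc2+/+ and Tsc2-/- MEFs Cd68 had 1.69 and 6.78 TPM and Csf1r 0.0162 and 1.77 TPM.

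The promoters of 4 members on chromosome 5 are shown because these genes share letters near their start but differed in level between cells and in their response to rapamycin. They are the neutrophil attractants Cxcl1, Cxcl2 and Cxcl3 and the interferon-induced Cxcl10. Each run is 300 bases of the gene's own strand, from 250 bases before the RefSeq start to 50 after it (RefSeq, GRCm38.p6). Capitals mark matches, on either strand, to a kB-like motif (GGGANNTNCC) or an ISRE-like motif (GAAANNGAAA, the interferon-stimulated response element). The windows are chr5:90890995-90891294 on the plus strand for Cxcl1, chr5:90903649-90903948 on the plus strand for Cxcl2, chr5:90785851-90786150 on the plus strand for Cxcl3 and chr5:92348840-92349139 on the minus strand for Cxcl10.
Cxcl1: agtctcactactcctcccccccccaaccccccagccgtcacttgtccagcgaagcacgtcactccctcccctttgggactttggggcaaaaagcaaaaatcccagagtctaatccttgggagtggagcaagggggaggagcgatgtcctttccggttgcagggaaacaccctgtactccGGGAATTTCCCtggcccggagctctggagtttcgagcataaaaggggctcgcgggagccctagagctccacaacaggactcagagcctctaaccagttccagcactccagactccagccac
Cxcl2: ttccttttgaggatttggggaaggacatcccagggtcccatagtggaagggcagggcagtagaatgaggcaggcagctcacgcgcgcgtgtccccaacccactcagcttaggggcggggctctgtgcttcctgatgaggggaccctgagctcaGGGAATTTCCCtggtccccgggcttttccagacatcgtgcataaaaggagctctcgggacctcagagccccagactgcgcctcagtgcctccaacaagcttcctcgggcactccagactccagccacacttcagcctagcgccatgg
Cxcl3: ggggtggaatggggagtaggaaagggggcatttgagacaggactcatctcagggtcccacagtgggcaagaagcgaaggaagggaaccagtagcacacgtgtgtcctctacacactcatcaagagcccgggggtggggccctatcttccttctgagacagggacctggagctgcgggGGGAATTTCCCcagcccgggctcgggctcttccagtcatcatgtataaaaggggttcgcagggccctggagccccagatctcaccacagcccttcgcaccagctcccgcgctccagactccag
Cxcl10: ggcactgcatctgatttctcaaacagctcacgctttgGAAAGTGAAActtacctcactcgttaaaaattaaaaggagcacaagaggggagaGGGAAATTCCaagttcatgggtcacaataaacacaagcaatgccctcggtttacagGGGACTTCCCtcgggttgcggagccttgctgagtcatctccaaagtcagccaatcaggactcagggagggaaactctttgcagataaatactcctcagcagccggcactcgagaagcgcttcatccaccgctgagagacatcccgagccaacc

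In the Cxcl1, Cxcl2 and Cxcl3 promoters the capitals are the same run, GGGAATTTCCC, in which a match on the plus strand and a match on the minus strand overlap by all but 1 base at either end. The run began 71 bases before the start in Cxcl1, 97 bases before it in Cxcl2 and 73 bases before it in Cxcl3. The Cxcl10 promoter held kB-like matches 159 and 103 bases before the start and the ISRE-like match 213 bases before it. The kB-like motif was found in 4.01% and the ISRE-like motif in 3.44% of the 32851 RefSeq promoters of this length. An entry was found for 27 of the 38 members, of which Ccl1, Cxcl1, Cxcl2, Cxcl3 and Cxcl10 held a kB-like match and Ccl19, Cxcl10 and Cxcl14 an ISRE-like match. Ccl2, Ccl5, Ccl7, Cxcl5, Cxcl11 and Cxcl16 had no entry. A match is a stretch of letters and says nothing of binding in these cells.

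The members lie mostly in clusters (GENCODE M21, GRCm38), with 12 on chromosome 11 and 11 on chromosome 5. Cxcl5 (ENSMUSG00000029371, 90759360 to 90761624), Cxcl3 (ENSMUSG00000029379, 90786103 to 90789600), Cxcl1 (ENSMUSG00000029380, 90891241 to 90893115) and Cxcl2 (ENSMUSG00000058427, 90903871 to 90905938) lie in this order on the plus strand of chromosome 5, with Cxcl15 between Cxcl3 and Cxcl1. Cxcl10 (ENSMUSG00000034855, 92346638 to 92348889) is on its minus strand. Ccl2 (ENSMUSG00000035385, 82035571 to 82037453) and Ccl7 (ENSMUSG00000035373, 82045712 to 82047525) are neighbours on the plus strand of chromosome 11, and Cxcl16 (ENSMUSG00000018920, 70453983 to 70459984) is on its minus strand. Cxcl12 (ENSMUSG00000061353) is at 117168535 to 117181367 on the plus strand of chromosome 6, and Ccl20 (ENSMUSG00000026166) at 83116766 to 83119167 on the plus strand of chromosome 1. All 10 are annotated as protein coding. Ccl2, Ccl6, Ccl25, Ccl27a, Cxcl10, Cxcl11 and Cxcl16 overlap a gene on the other strand, and whether the counting used strand is not given in the sources used here, so their values carry that uncertainty. Ccl27a and Ccl27b, and Ccl21a and Ccl21b, are near-identical copies between which reads can be split.

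Each library drew most of its chemokine RNA from a few genes. The summed level of the 38 members was 1199 TPM in Tsc2+/+ MEFs, 1087 TPM in Tsc2-/- MEFs, 466 TPM in untreated MKOC, 1007 TPM in MKOC with rapamycin, 1263 TPM in untreated TJ and 2739 TPM in TJ with rapamycin. The 5 highest members made up 81.6% to 91.8% of that sum. The leading gene was Cxcl10 in Tsc2+/+ MEFs, Ccl2 in Tsc2-/- MEFs and in both MKOC libraries, and Cxcl5 in both TJ libraries. The number of members at 1 TPM or more was 12 in Tsc2+/+ MEFs, 16 in Tsc2-/- MEFs, 13 in each untreated kidney library and 14 in each rapamycin library.

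**Figure D1:**
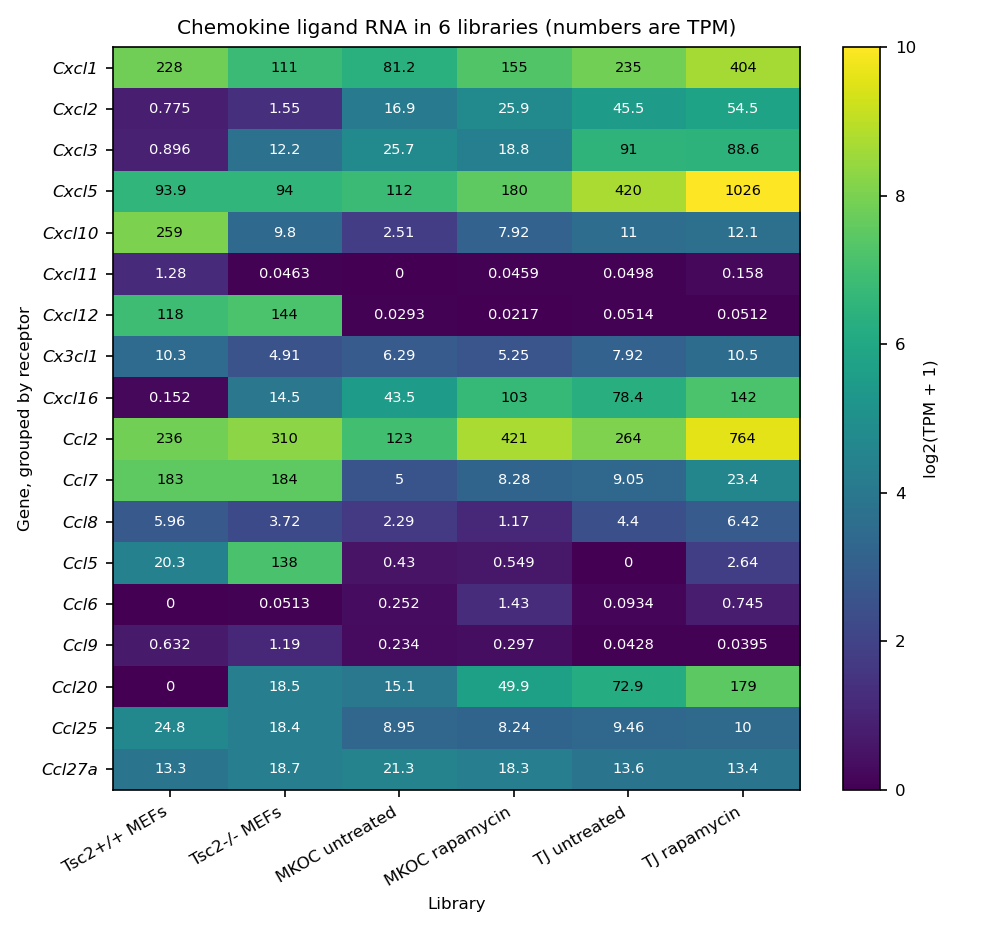
Level of the 18 chemokine ligands that reached 1 TPM in at least 1 library (rows, grouped by receptor) in the 6 libraries (columns); color gives log2(TPM + 1) and the printed number is TPM from 1 library. Cxcl12 and Ccl7 are high in the MEF columns, Cxcl2, Cxcl3 and Cxcl16 in the kidney columns, and Cxcl10 stands at 259 TPM in Tsc2+/+ MEFs against 12.1 TPM or less elsewhere.

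Of the 18 detected members, 9 were at 1 TPM or more in all 6 libraries: Ccl2, Ccl7, Ccl8, Ccl25, Ccl27a, Cxcl1, Cxcl5, Cxcl10 and Cx3cl1. The other 9 that reached 1 TPM did so in some libraries only: Ccl5, Ccl6, Ccl9, Ccl20, Cxcl2, Cxcl3, Cxcl11, Cxcl12 and Cxcl16. Members that stayed under 1 TPM were Ccl1, Ccl3, Ccl4, Ccl11, Ccl12, Ccl17, Ccl22, Ccl24, Ccl28, Cxcl9, Cxcl13, Cxcl14, Cxcl15 and Cxcl17, with 0.973 TPM for Ccl28 in Tsc2+/+ MEFs as their highest level. Ccl19, Ccl21a, Ccl21b, Ccl26, Ccl27b and Xcl1 had 0 counts in all 6 libraries. The 3 counts that a count of 0 allows were worth 0.117 to 0.263 TPM for the median member, depending on the library. For Ccl26 they were worth 1.13 to 1.92 TPM, so that its 0 counts do not place it under 1 TPM. The steadiest of the detected members included Ccl27a, a skin-homing ligand of CCR10, which had 13.3 TPM in Tsc2+/+ MEFs, 18.7 TPM in Tsc2-/- MEFs, 21.3 and 18.3 TPM in untreated and rapamycin-treated MKOC and 13.6 and 13.4 TPM in untreated and treated TJ.

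Cxcl12 and Ccl7 were far higher in the MEF libraries than in the kidney libraries, and Cxcl2 was higher in the kidney libraries, while 9 of the 18 detected members were at 1 TPM or more in all 6. Such differences have no replicate check beyond these libraries, since the line and the cell type cannot be told apart, and in bulk RNA fewer cells of a type and less RNA per cell cannot be told apart either. Of the 18 detected members, 5 were higher in all 4 kidney libraries than in both MEF libraries (Cxcl2, Cxcl3, Cxcl5, Cxcl16 and Ccl6), where 26.8% of 13913 genes at 1 TPM were. A further 5 were higher in both MEF libraries (Ccl5, Ccl7, Ccl9, Ccl25 and Cxcl12), where 21.4% of genes were. Both counts are near the share of all genes and are no result about the ligands as a group, and on CPM 3 members in place of 5 were higher in the kidney libraries. Ccl6 stood apart on 1 count in untreated TJ (0.0934 TPM, 0.0165 to 0.529) against 1 count in Tsc2-/- MEFs (0.0513 TPM, 0.00906 to 0.291), so that no difference between these nearest libraries was detectable at this depth. With rapamycin Ccl6 lay above the MEF intervals, at 1.43 TPM (0.820 to 2.51) in MKOC and 0.745 TPM (0.405 to 1.37) in TJ. Untreated MKOC, at 0.252 TPM (0.0857 to 0.741), did not. For Ccl9 too the intervals of the nearest libraries overlapped, with 0.632 TPM (0.440 to 0.897) in Tsc2+/+ MEFs and 0.297 TPM (0.0738 to 0.982) in MKOC with rapamycin.

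Cxcl12, the stromal ligand of CXCR4, had 118 TPM in Tsc2+/+ and 144 TPM in Tsc2-/- MEFs and 0.0293 and 0.0217 TPM in MKOC without and with rapamycin and 0.0514 and 0.0512 TPM in TJ. The kidney values rest on 1, 1, 2 and 2 estimated counts. Cxcl12 was the one member at least 8-fold apart between the nearest MEF and kidney libraries with 1 TPM added (113-fold), a distance that 1.46% of genes reached in favor of the MEFs. Its transcript ENSMUST00000112866 held 49.7% of its counts in Tsc2+/+ cells but 33.1% in Tsc2-/- cells, and ENSMUST00000112871 held 39.1% and 56.0%.

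The monocyte attractant Ccl7 had 183 and 184 TPM in Tsc2+/+ and Tsc2-/- MEFs but 5.0 and 9.05 TPM in untreated MKOC and TJ and 8.28 and 23.4 TPM with rapamycin. Its nearest libraries were 7.54-fold apart with 1 TPM added, just inside the 8-fold limit, although its neighbour Ccl2 overlapped between the cell types. Ccl25, the thymic and gut ligand of CCR9, had 24.8 and 18.4 TPM in Tsc2+/+ and Tsc2-/- MEFs and 8.24 to 10.02 TPM in the kidney libraries.

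In the other direction no member reached 8-fold between the nearest libraries, as 1.19% of genes did. Cxcl2 came closest, at 6.99-fold. It had 0.775 and 1.55 TPM in Tsc2+/+ and Tsc2-/- MEFs, 16.9 and 25.9 TPM in MKOC without and with rapamycin, and 45.5 and 54.5 TPM in TJ without and with rapamycin. Cxcl1, whose promoter holds the same GGGAATTTCCC run, had 228 and 111 TPM in the same MEF libraries and therefore overlapped with the kidney lines.

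Between the MEF libraries, Ccl20 and Cxcl16 were higher and Cxcl10 was lower in the Tsc2-/- library by at least 8-fold. With 1 library per genotype these are differences between libraries, with no replicate check and no p-value, and intervals cover counting error only. Folds are of TPM with 1 added, which understates the change of genes of low level. At 8-fold, 2 of the 17 members with 1 TPM in either library were higher, against 3.24% of 12771 genes, and 1 was lower, against 0.525% of genes. At 2-fold, 4 of the 17 were higher, against 25.2% of genes, 3 were lower, against 5.18% of genes, and 10 stayed within 2-fold, so that the share of higher members was near that of all genes. The median log2 fold of the 17 members was 0.28, beside 0.45 for all genes, and genes at 10 TPM in both libraries had a median ratio of 1.31.

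Ccl20, the ligand of CCR6 on Th17 cells and immature dendritic cells, had 18.5 TPM (95% Wilson interval 16.1 to 21.4) from 187 counts in the Tsc2-/- library and 0 counts in the Tsc2+/+ library. Against 3 counts it was at least 117-fold higher. Cxcl16, a transmembrane ligand of CXCR6 that can be shed, had 0.152 TPM (0.0867 to 0.265) from 12 counts in Tsc2+/+ and 14.5 TPM (13.04 to 16.01) in Tsc2-/- MEFs. This is a ratio of 95.4 (counting interval 53.7 to 169) and a log2 fold of 3.75 with 1 TPM added. In the Tsc2+/+ library all 12 counts of Cxcl16 fell on ENSMUST00000019064, while in the Tsc2-/- library 56.5% did.

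Cxcl10, which attracts CXCR3-bearing T cells, had 259 TPM (253 to 265) from 6631 counts in Tsc2+/+ cells and 9.80 TPM (8.29 to 11.6) from 137 counts in Tsc2-/- MEFs. It was 26.4-fold lower in the Tsc2-/- library (22.3 to 31.3), and -4.59 on the log2 scale with 1 TPM added. Its neighbour Cxcl11, another CXCR3 ligand that the annotation calls a polymorphic pseudogene, had 1.28 and 0.0463 TPM, a ratio of 27.7 (3.85 to 199) that rests on 1 count in Tsc2-/- cells. The third ligand of that receptor, Cxcl9, had 0.258 and 0.0721 TPM.

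**Figure D2:**
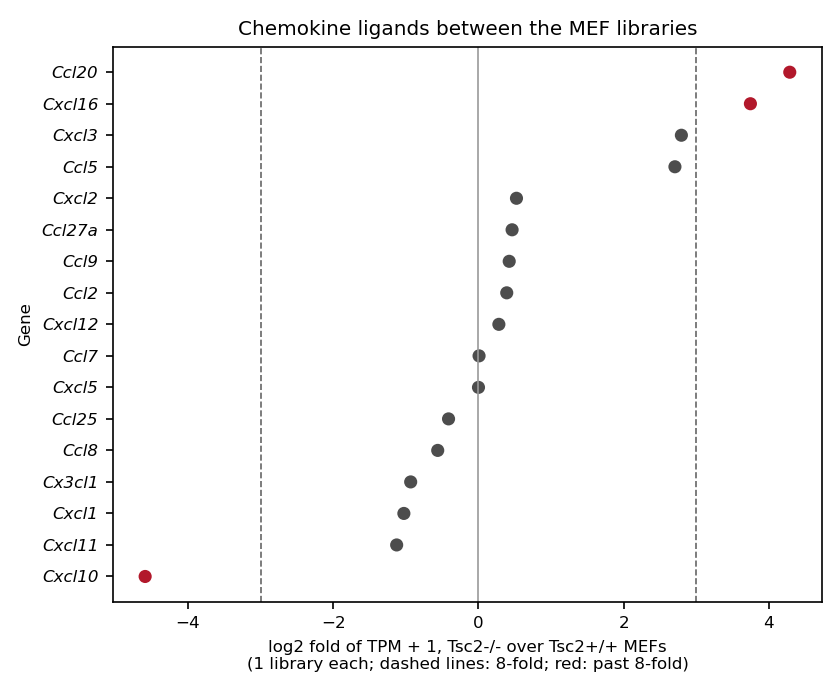
Log2 fold of TPM with 1 added (horizontal axis), Tsc2-/- over Tsc2+/+ MEFs, for the 17 chemokine ligands with 1 TPM in either library (vertical axis); each point is 1 library against 1 library and dashed lines mark 8-fold. Ccl20 and Cxcl16 lie to the right of the lines at 4.29 and 3.75, Cxcl10 lies to the left at -4.59, and Cxcl3 and Ccl5 lie just inside.

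Just inside the limit were Cxcl3 and Ccl5. Cxcl3 had 0.896 and 12.2 TPM in Tsc2+/+ and Tsc2-/- MEFs, a ratio of 13.6 (8.76 to 21.04) that became 6.95-fold with 1 added. Ccl5, a ligand of CCR1, had 20.3 and 138 TPM, a ratio of 6.80 (5.84 to 7.92) that became 6.53-fold. With 0.1 or 0.5 TPM added in place of 1, 3 members were higher at 8-fold. Cxcl1 and the membrane-anchored Cx3cl1, the ligand of CX3CR1, were lower in the Tsc2-/- library, by 2.05-fold (1.93 to 2.17) and 2.09-fold (1.82 to 2.41) without an added value. Those 2 lay on either side of the 2-fold limit once 1 TPM was added, with log2 folds of -1.03 and -0.93.

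Several abundant members hardly differed between the genotypes. Cxcl5 had 93.9 TPM in Tsc2+/+ and 94.0 TPM in Tsc2-/- MEFs, a ratio of 1.001 (0.950 to 1.05). Ccl7 had a ratio of 1.01 (0.950 to 1.07), Cxcl12 of 1.22 (1.18 to 1.26) and Ccl2 of 1.31 (1.25 to 1.37). Set against the median ratio of 1.31 over genes at 10 TPM in both libraries, Cxcl5, Ccl7 and Cxcl12 lay below it and Ccl2 at it. Ccl8, another monocyte attractant, had 5.96 and 3.72 TPM, and Ccl9 had 0.632 and 1.19 TPM.

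The MEF libraries also differed in markers and in interferon-response genes. The summed level of 8 fibroblast markers was 1824 TPM in Tsc2+/+ and 2502 TPM in Tsc2-/- MEFs. By at least 2-fold, 3 of the 7 at 1 TPM were higher and 0 lower, against 25.2% and 5.18% of genes. Dcn had 7.08 and 422 TPM, Thy1 0 and 7.36 TPM and Col1a2 996 and 788 TPM. Kidney epithelial markers summed to 0.253 and 77.6 TPM, from Krt18 (0 and 20.6 TPM) and Krt19 (0.0506 and 55.6 TPM), with 0 and 2 of 8 at 1 TPM. Leukocyte markers summed to 1.95 and 9.69 TPM with 1 and 2 of 10 at 1 TPM, and endothelial markers to 1.02 and 3.78 TPM with 0 and 2 of 6 at 1 TPM. Of the leukocyte markers, Cd68 had 1.69 and 6.78 TPM and Csf1r 0.0162 and 1.77 TPM, while Tyrobp and Adgre1 were at 0 TPM in both libraries. Of 16 interferon-response genes, 11 were at least 2-fold lower in the Tsc2-/- library, against 5.18% of genes. At least 2-fold higher was 1 (Ifih1, 0.364 and 13.0 TPM), against 25.2% of genes. The median log2 fold was -1.57, beside 0.45 for all genes. Mx1 and Oasl2 were lower by the largest folds, with 13.0 and 1.31 TPM and 389 and 67.6 TPM in Tsc2+/+ and Tsc2-/- MEFs. Isg15 had 713 and 178 TPM. The part of these differences in the chemokine values was not tested.

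With rapamycin, 8 chemokine ligands were called higher in the kidney lines and 0 lower. The comparison asks how RNA levels in cells labelled Tsc2-null differ with rapamycin, with the 2 lines as replicates and the line as a term in the edgeR quasi-likelihood model. Of the 15 members that passed the filter on low counts, 8 were called higher, against 17.5% of 12952 genes, and 0 lower, against 17.4% of genes. At an unadjusted p under 0.05, 9 members were higher and 0 lower, and DESeq2 and limma also called 0 lower. The median log2 change of the 15 was 0.85, beside 0.02 for all genes tested. The summed level of all 38 members rose 2.16-fold in MKOC and 2.17-fold in TJ. The other 23 members were not tested because their counts were too low. Without the line as a block no member was called and 3 had an unadjusted p under 0.05, since the level of a line then counts as spread.

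The CCR2 ligands held the largest rise among abundant members. Ccl2, the main attractant of monocytes, went from 123 to 421 TPM in MKOC and from 264 to 764 TPM in TJ. Both treated libraries were above both untreated libraries. The log2 change was 1.65 (SE 0.11, edgeR adjusted p = 8.1e-06), and the ratio was 3.42 (3.23 to 3.62) in MKOC and 2.89 (2.77 to 3.01) in TJ.

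Its neighbour Ccl7 went from 5.0 to 8.28 TPM in MKOC and from 9.05 to 23.4 TPM in TJ, so that the treated MKOC value lay below the untreated TJ value. Its log2 change was 1.08 (SE 0.25, edgeR adjusted p = 0.0088). The third detected CCR2 ligand, Ccl8, had 2.29 and 1.17 TPM in untreated and treated MKOC and 4.4 and 6.42 TPM in untreated and treated TJ, with a log2 difference of 0.02 (SE 0.46) and no call.

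Of the CXCR2 ligands 3 of 4 tested were called higher by edgeR, against 17.5% of genes. DESeq2, for which no share of all genes was taken, called 2 of them higher and did not call Cxcl2. Cxcl5 went from 112 to 180.5 TPM in MKOC and from 419.6 to 1026 TPM in TJ, a log2 change of 0.98 (SE 0.14, edgeR adjusted p = 0.0006). Cxcl1 went from 81.2 to 155 TPM in MKOC and from 235 to 404 TPM in TJ, a log2 change of 0.85 (SE 0.10, edgeR adjusted p = 0.00027). For both genes the groups overlapped across lines, since untreated TJ exceeded treated MKOC, and each line rose by itself.

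Cxcl2 went from 16.9 to 25.9 TPM in MKOC and from 45.5 to 54.5 TPM in TJ, a log2 change of 0.42 (SE 0.14, edgeR adjusted p = 0.040, DESeq2 adjusted p = 0.149). Cxcl3 had 25.7 and 18.8 TPM in untreated and treated MKOC and 91.0 and 88.6 TPM in untreated and treated TJ, a log2 difference of -0.23 (SE 0.13, edgeR adjusted p = 0.21) that was not called. The 3 genes with the shared GGGAATTTCCC run thus had log2 estimates of 0.85, 0.42 and -0.23.

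**Figure D3:**
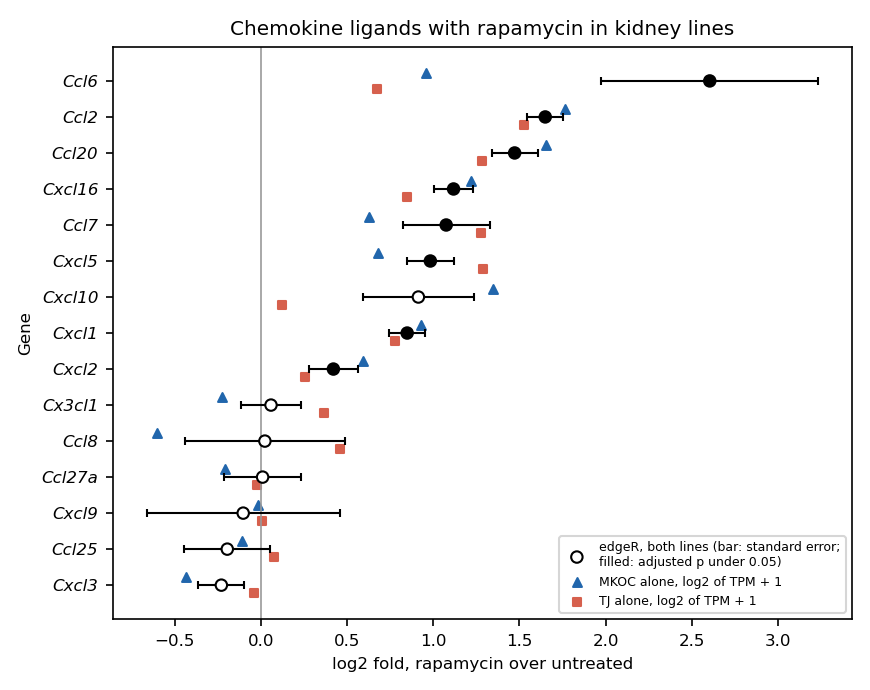
Log2 fold with rapamycin over untreated cells (horizontal axis) for the 15 chemokine ligands tested in the kidney lines; circles with bars are the edgeR estimate over both lines with its standard error, filled at an adjusted p under 0.05, and triangles and squares are MKOC and TJ alone with 1 TPM added. Ccl2 and Ccl20 rose by 1.65 and 1.47, the lines lie on opposite sides of 0 for Cx3cl1, Ccl8, Ccl25 and Cxcl9, and Ccl6 lies at 2.60 on few counts.

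Ccl20 and Cxcl16, the members past 8-fold higher in the Tsc2-/- MEF library, rose with rapamycin, whereas Cxcl3, just inside that limit, was not called and Ccl5 was not tested. Ccl20 went from 15.1 to 49.9 TPM in MKOC and from 72.9 to 179 TPM in TJ, a log2 change of 1.47 (SE 0.13, edgeR adjusted p = 4.7e-05). Cxcl16 went from 43.5 to 103 TPM in MKOC and from 78.4 to 142 TPM in TJ, a log2 change of 1.12 (SE 0.11, edgeR adjusted p = 9.8e-05). Both treated libraries of Cxcl16 lay above both untreated ones, whereas for Ccl20 untreated TJ exceeded treated MKOC.

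The other membrane-anchored ligand, Cx3cl1, was not called. It had 6.29 and 5.25 TPM in untreated and treated MKOC and 7.92 and 10.5 TPM in untreated and treated TJ, a log2 difference of 0.06 (SE 0.18, edgeR adjusted p = 0.83). Adam10 and Adam17, the proteases that shed both membrane-anchored ligands, were not called either, with log2 differences of 0.13 (SE 0.10) and -0.09 (SE 0.11).

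Cxcl10 had 2.51 and 7.92 TPM in untreated and treated MKOC and 11.0 and 12.1 TPM in untreated and treated TJ. Its log2 difference of 0.91 (SE 0.32) was just outside the threshold (edgeR adjusted p = 0.0501), with a ratio of 3.16 (2.11 to 4.72) in MKOC and 1.10 (0.891 to 1.35) in TJ. The other CXCR3 ligand tested, Cxcl9, stayed at 0.264 TPM or less in the kidney lines, with a log2 difference of -0.10 (SE 0.56).

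Ccl6, a ligand of CCR1, was called higher on few counts. It had 3 and 12 counts in untreated and treated MKOC and 1 and 10 counts in untreated and treated TJ, or 0.252, 1.43, 0.0934 and 0.745 TPM. The ratio was 5.69 (1.60 to 20.1) in MKOC and 7.98 (1.02 to 62.3) in TJ, and edgeR gave an adjusted p of 0.010. Ccl5 had 0.430 and 0.549 TPM in MKOC and 0 and 2.64 TPM in TJ without and with rapamycin, from 0 to 17 counts, and was not tested.

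Ccl25 and Ccl27a, both ligands of homing receptors, were not called, with log2 differences of -0.19 (SE 0.25) and 0.01 (SE 0.22). By TPM with 1 added, the changes in MKOC and TJ were -0.11 and 0.07 for Ccl25 and -0.20 and -0.02 for Ccl27a. The edgeR estimates lay outside these values, and the summed counts were not corrected for transcript length. Among the 8 edgeR calls, the one on Ccl6 was also lost with DESeq2 (adjusted p = 0.223). Markers changed with the treatment too, and their part in the chemokine values was not tested. For the marker counts that follow, edgeR called 17.5% of all genes higher and 17.4% lower. Kidney epithelial markers rose from 1429 to 2074 TPM in MKOC and from 1643 to 2454 TPM in TJ in sum, with 3 of 6 tested called higher (Krt8, Krt18 and Cdh16) and Epcam at 0 in both treated libraries. Of 7 fibroblast markers tested 2 were called higher (Dcn and Col3a1), and the list summed to 26.7 and 52.0 TPM in MKOC and 7.73 and 13.3 TPM in TJ without and with rapamycin. Of 2 leukocyte markers tested Csf1r was called higher, while Cd68 had 7.08 and 5.33 TPM in untreated and treated MKOC and 8.01 and 4.48 TPM in TJ (log2 difference -0.56, edgeR unadjusted p = 0.0419, not called), and the list summed to 19.6 and 23.8 TPM in MKOC and 34.0 and 35.4 TPM in TJ, with Tyrobp at 0 throughout. None of 3 endothelial markers tested was called by edgeR, nor had an unadjusted p under 0.05, and that list summed to 4.39 and 4.01 TPM in MKOC and 2.21 and 2.39 TPM in TJ.

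TJ cells had more chemokine RNA than MKOC cells under both treatments. The summed level was 2.71-fold higher in TJ untreated and 2.72-fold higher with rapamycin, and the median log2 fold of the 15 members at 1 TPM in a kidney library was 0.83 and 1.04, beside 0.01 and -0.01 for all genes. Each line is 1 line with 1 library per treatment, so this is a description with no test. No member was 8-fold higher or lower in both treatments, as were 0.0242% and 0.0% of 12414 genes. At 2-fold, a limit chosen after those counts were seen, 5 members were higher in TJ in both treatments, against 0.959% of genes, and 0 were lower, against 0.314% of genes.

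**Figure D4:**
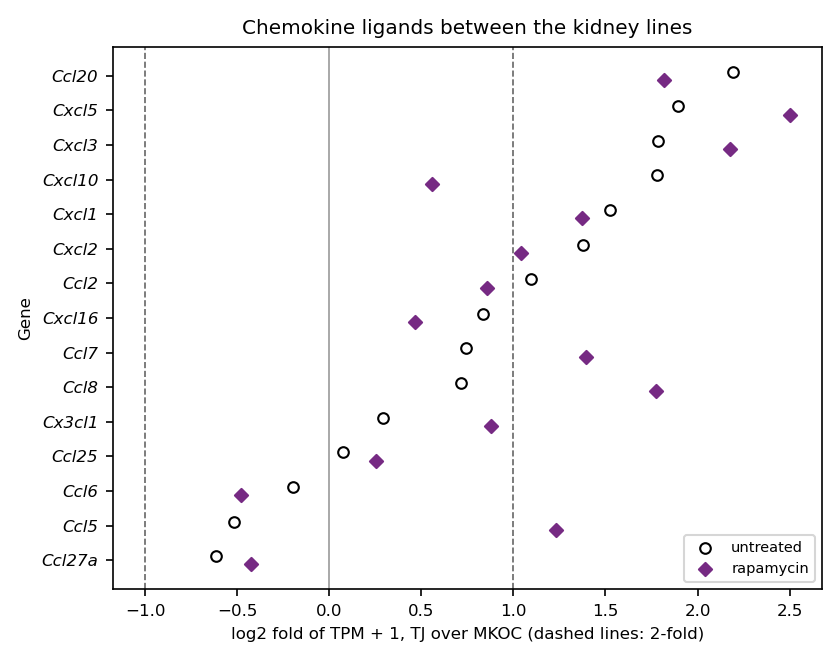
Log2 fold of TPM with 1 added (horizontal axis), TJ over MKOC, for the 15 chemokine ligands at 1 TPM in at least 1 kidney library; open circles are untreated and diamonds rapamycin-treated cells, each 1 library against 1 library, and dashed lines mark 2-fold. Ccl20, Cxcl5, Cxcl3, Cxcl1 and Cxcl2 lie beyond the right line in both treatments, and Ccl27a and Ccl6 lie to the left of 0 in both.

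The 5 members were Ccl20 and the CXCR2 ligands Cxcl1, Cxcl2, Cxcl3 and Cxcl5. With 1 TPM added, Cxcl5 was 3.71-fold higher in TJ untreated and 5.66-fold higher with rapamycin. On the same scale Cxcl3 was 3.44-fold and 4.52-fold higher, Cxcl1 2.87-fold and 2.59-fold, and Cxcl2 2.60-fold and 2.06-fold. Ccl20 was 4.58-fold higher untreated and 3.53-fold higher with rapamycin. All 4 detected CXCR2 ligands thus stood higher in TJ, and the list of 5, which adds the barely detected Cxcl15, summed to 236 and 792 TPM in untreated MKOC and TJ and 381 and 1574 TPM with rapamycin. The platelet ligand Ppbp, outside the set by its name, had 7.21 and 27.3 TPM in untreated MKOC and TJ and 4.99 and 23.4 TPM with rapamycin. Ccl27a was lower in TJ, at 0.654 and 0.744 of its MKOC level with 1 TPM added. Fibroblast markers summed to 7.73 and 13.3 TPM in untreated and treated TJ against 26.7 and 52.0 TPM in MKOC, most of it from Dcn (6.73 and 10.5 TPM against 25.5 and 50.3 TPM), while Col1a1 had 0.309 TPM in untreated TJ against 0.095 TPM in untreated MKOC, and kidney epithelial markers stood at 1643 and 2454 TPM against 1429 and 2074 TPM. Leukocyte markers summed to 34.0 and 35.4 TPM in untreated and treated TJ against 19.6 and 23.8 TPM in MKOC, with Csf1r at 25.0 and 30.3 TPM against 11.3 and 17.7 TPM and Tyrobp at 0 TPM in both lines, and endothelial markers to 2.21 and 2.39 TPM against 4.39 and 4.01 TPM. The part of these markers in the chemokine levels was not tested.

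Receptors for these ligands were scarce. Of 18 chemokine receptors, 1 reached 1 TPM in Tsc2+/+ MEFs (Ccr10, 2.15 TPM) and none in the other 5 libraries. In the kidney lines 3 were tested with rapamycin and edgeR called 0 of them, against 17.5% of genes called higher and 17.4% lower. At an unadjusted edgeR p under 0.05 there were also 0. Among the atypical receptors, which bind chemokines without classical signalling, Ackr3 had 3.85 and 0.918 TPM in Tsc2+/+ and Tsc2-/- MEFs and 0.467 to 1.59 TPM in the kidney libraries. Ccrl2 was called higher with rapamycin (log2 change 1.37, SE 0.47, edgeR adjusted p = 0.044), but it had 0.335 and 0.266 TPM in untreated and treated MKOC and 1.52 and 6.06 TPM in untreated and treated TJ. Dpp4, a peptidase that trims several chemokines, had 34.7 TPM in Tsc2-/- MEFs, 0 TPM in Tsc2+/+ MEFs and at most 0.0668 TPM in the kidney lines.

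Lists of NF-kB and interferon-response genes were examined beside the ligands, and their part in the chemokine values was not tested. Of 18 tested NF-kB subunits and feedback targets, 15 were called higher with rapamycin and 0 lower, against 17.5% and 17.4% of all genes, with a median log2 change of 0.66 beside 0.02 for all genes. Csf2, Tnfaip3, Lif and Vcam1 rose most, and Nfkbib, Rel and Il1a, with log2 differences of -0.43, -0.27 and 0.04, were not called. Tnfaip3, which encodes the feedback inhibitor A20, went from 7.67 to 24.3 TPM in MKOC and from 12.6 to 28.6 TPM in TJ (log2 change 1.42, SE 0.13, edgeR adjusted p = 5.9e-05). Of 16 interferon-response genes tested, 11 were called higher and 0 lower, against the same 17.5% and 17.4% of all genes, with a median of 0.63 beside 0.02 for all genes. Among those not called were Isg15, Ifit3, Mx1 and Rsad2, with log2 differences of 0.45, 0.52, 0.30 and -0.08. Gbp2, a guanylate-binding protein induced by interferon gamma, went from 0.892 to 8.37 TPM in MKOC and from 1.87 to 10.9 TPM in TJ (log2 change 2.93, SE 0.24, edgeR adjusted p = 2.9e-05).

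**Figure D5:**
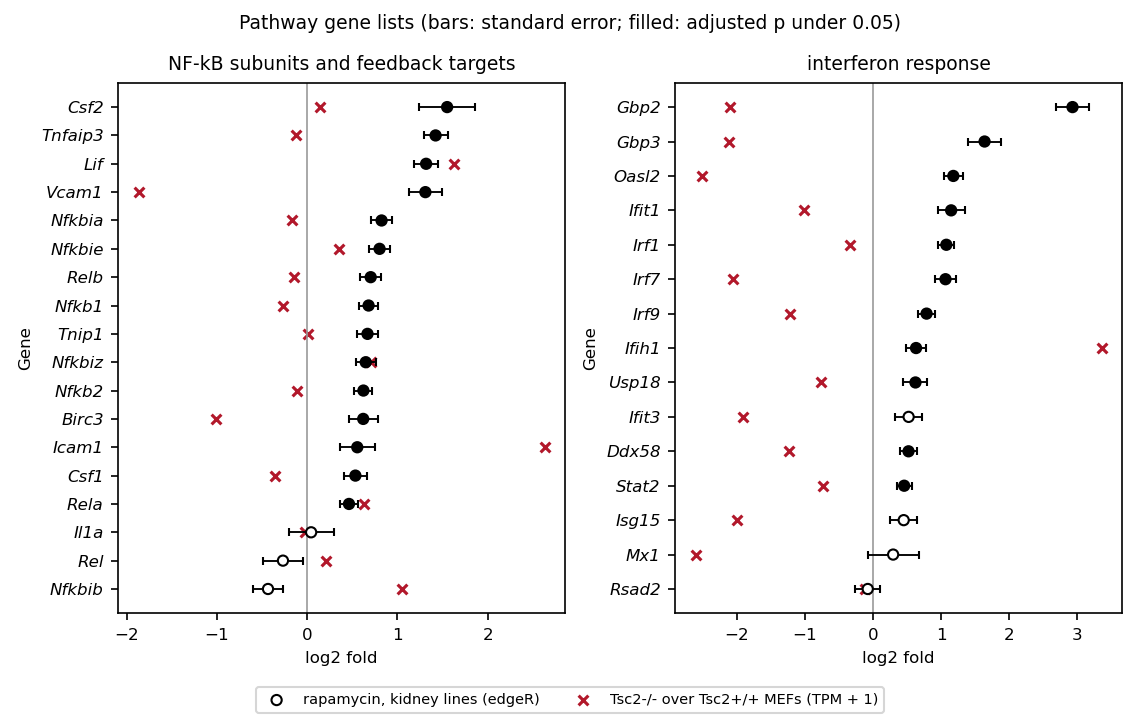
Log2 fold (horizontal axis) of the tested NF-kB genes (left panel) and 15 of the interferon-response genes (right panel); circles with bars are rapamycin over untreated kidney cells with the edgeR standard error, filled at an adjusted p under 0.05, and crosses are Tsc2-/- over Tsc2+/+ MEFs from 1 library each with 1 TPM added. Filled circles number 15 of 18 on the left and 11 of 15 on the right, and in the right panel most crosses lie to the left of 0, with Ifih1 at 3.36 as the exception beyond 8-fold.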

How the data were processed

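RNA was measured in 6 libraries made with the TruSeq Stranded mRNA kit. The authors trimmed paired-end reads with Trimmomatic 0.32 and ran Kallisto, and they deposited estimated counts and TPM for 88198 mouse transcripts. The version of Kallisto is not given in the sources used here, and the study's methods name a human reference although the identifiers are those of mouse. A deposited ratio column, the authors' fold change per transcript between the MEFs, was read only for its gene symbols. TPM and estimated counts were summed per symbol, and the 1006 transcripts without a symbol (0.372% to 0.468% of counts) were left out. Members and lists were chosen with earlier results of these data known, by symbol and by known receptor or pathway. Every member with 1 TPM in at least 1 library is named with its values, the rest are counted and named, with values only for Cxcl9, which was tested with rapamycin, and for the highest level among them (Ccl28), 2 exceptions made after values were seen, and of other lists at most 4 genes with the largest change past a threshold, together with genes named for a check.

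Folds between single libraries are of TPM with 1 added, with a limit of 8-fold, and values with a counting interval and ratios of sums are plain ratios. For rapamycin, the summed counts were rounded and tested with edgeR 4.0.16 (TMM, filterByExpr, quasi-likelihood test, Benjamini-Hochberg adjustment at 0.05 over 12952 genes) with the cell line as a term, in R 4.3.3. The labels name the line of each library, which pairs the samples, and deviations within a line had a correlation of 0.54. Alternatives used DESeq2 1.42.0, limma 3.58.1, other normalizations, filters, added values and thresholds, single transcripts, CPM and no term for the line. Alternatives for the 2-fold limit between the kidney lines and for kidney against MEF levels were chosen after seeing the data. Intervals are 95% Wilson intervals, or log-scale counting intervals for ratios, and with the floor of 3 counts they cover counting error only. The edgeR test gives no standard error. The SE shown was derived as the absolute log2 change divided by the square root of the F statistic. The samples are separate lines. With the line as a term, p-values measure how far the change with rapamycin differed between the 2 lines, not how far their levels did. The model also borrows spread from all genes tested. Values of 1 interferon-response gene are not reported here, although it stayed in the counts of its list. The edgeR step was tested on simulated data. The tables were made with Python 3.11.15, numpy 2.4.6, pandas 2.3.3 and scipy 1.17.1, and the plots with matplotlib 3.10.9.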

Additional observations from a re-analysis of the deposited data

Results flagged for a closer look

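Cx3cl1 changed in opposite directions in the 2 kidney lines with rapamycin. On the log2 scale with 1 TPM added it had -0.22 in MKOC and 0.37 in TJ, so that TJ exceeded MKOC by 0.59. It was not alone: Ccl8 (-0.60 and 0.46), Ccl25 (-0.11 and 0.07) and Cxcl9 (-0.02 and 0.01) also had opposite signs. The counting intervals of their ratios included 1 in each line. Each line gave 1 library per treatment, and the difference between the lines was not tested.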

How the results depend on the processing

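Of 82 alternative values of the counts of members, 75 were within 1.5 times the reported count. Between the MEF libraries, adding 0.1 TPM gave 2 members lower at 8-fold in place of 1, adding 5 TPM gave 0 higher in place of 2, and a limit of 4-fold gave 4 higher. Between the kidney lines, adding 0.1 TPM gave 1 member lower in TJ at 2-fold in both treatments in place of 0. On CPM, 3 members rather than 5 were higher in all kidney libraries. Counting members with more than 3 estimated counts in place of 1 TPM gave 21 in Tsc2+/+ MEFs in place of 12. For rapamycin, the fit with no replicate block for the line called 0 members higher in place of 8, while DESeq2 called 6, RLE scaling and limma 8, and upper-quartile scaling and a fit with no filter 9, the added gene being Cxcl10. No alternative called a member lower. Of 111 alternative values of single genes with all libraries, 93 kept direction and call, 12 lost the call, 2 gained one and 4, of genes not called, changed sign near 0. With 1 line left out no residual degrees of freedom remained and there was no call: the 16 values of called members kept their sign, and 6 of 14 values of the others changed it. With only 1 line, log2 changes with 1 TPM added ranged from 1.53 to 1.76 for Ccl2 and from 0.13 to 1.35 for Cxcl10. Depth limits members of few counts such as Ccl6 and Ccl5 in the kidney lines.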
